A study of Mus musculus with 16 samples.

Results

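The single-strand break landscape of Tdg knockout mouse embryonic stem cells under talazoparib was described from the authors' peak list for that condition, as all peaks on chromosomes 1 to 19. The list set immunoprecipitated (IP) DNA of 3 pooled libraries against 1 input library. It held 23559 such peaks, out of 102165 peaks on these chromosomes in the 4 lists of the whole series. Each peak was placed by its centre in a promoter, a gene body or a distal site and ranked by IP signal.

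The series holds 16 SSB-seq libraries, from cells with or without TDG that received DMSO or talazoparib. Those described here, C57BL/6JRj mouse embryonic stem cells labelled as a knockout depleted of Tdg, were kept without serum in 2i medium plus LIF. A Tdg minigene was excised by 2 h in 5 µM 4-OHT before the experiment, and the cells then received 5 nM talazoparib for 24 h before DNA extraction. All 3 IP libraries and the input share this genotype and treatment. The model is therefore an acute loss of a rescuing Tdg copy, and the labels do not say whether the cultures of the 3 IP libraries were separate or how many clones were used. Peaks in DNA do not measure expression, so the labelled cell type could not be checked against marker RNA. No peak was listed in Tdg or in its promoter, and a list of break peaks is no check of the knockout.

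TDG is a DNA glycosylase of base excision repair. It removes thymine or uracil mispaired with guanine, and the oxidised forms of methylcytosine that TET enzymes make, which leaves an abasic site that is cut and refilled through a single-strand break. PARP1 binds such breaks and recruits the XRCC1 complex that seals them, and talazoparib is an inhibitor that also holds PARP on DNA. In SSB-seq, E. coli DNA polymerase I adds digoxigenin-dUTP at nicks in purified DNA for a short time, chain-terminating nucleotides limit the tract, and an antibody to digoxigenin pulls the labelled fragments down. A peak thus marks DNA that carried more label than the input predicts, and neither the enzyme that nicked it nor the strand is recorded.

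The sequences below show what the leading sites look like. They are the 300 bases nearest to the peak centre that contain no annotated exon, on the plus strand of GRCm38 (mm10), from the RefSeq copy of that assembly, with CpG dinucleotides in capitals. The first set is the promoter side of the 3 densest promoter peaks with ordinary input, whose values are given further on. Ordinary input here means at or below 3 times the input mean. Wrb lies at chr16:96145107-96145406, Tmem259 at chr10:79984889-79985188 and Cactin at chr10:81320659-81320958, and they hold 30, 15 and 25 CpG.
Wrb: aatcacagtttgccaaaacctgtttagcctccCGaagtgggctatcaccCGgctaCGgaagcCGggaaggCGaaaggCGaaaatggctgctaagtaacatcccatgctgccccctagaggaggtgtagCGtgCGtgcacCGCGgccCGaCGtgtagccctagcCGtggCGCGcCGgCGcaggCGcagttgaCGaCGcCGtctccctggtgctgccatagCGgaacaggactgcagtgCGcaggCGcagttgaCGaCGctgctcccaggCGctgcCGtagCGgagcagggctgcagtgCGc
Tmem259: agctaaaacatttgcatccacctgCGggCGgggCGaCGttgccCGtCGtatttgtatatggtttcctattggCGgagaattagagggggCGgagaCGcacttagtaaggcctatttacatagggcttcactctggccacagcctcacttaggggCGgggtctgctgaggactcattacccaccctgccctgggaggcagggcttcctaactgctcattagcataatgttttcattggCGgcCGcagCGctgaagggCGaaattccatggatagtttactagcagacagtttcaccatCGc
Cactin: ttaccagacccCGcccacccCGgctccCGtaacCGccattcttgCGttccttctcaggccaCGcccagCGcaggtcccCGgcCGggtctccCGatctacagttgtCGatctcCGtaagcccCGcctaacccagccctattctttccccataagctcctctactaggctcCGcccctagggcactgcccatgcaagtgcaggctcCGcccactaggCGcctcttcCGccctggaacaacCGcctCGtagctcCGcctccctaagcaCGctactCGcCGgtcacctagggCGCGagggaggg
The next comes from an intron. The Ltbp4 stretch (chr7:27330941-27331240) holds 23 CpG, like a promoter.
Ltbp4: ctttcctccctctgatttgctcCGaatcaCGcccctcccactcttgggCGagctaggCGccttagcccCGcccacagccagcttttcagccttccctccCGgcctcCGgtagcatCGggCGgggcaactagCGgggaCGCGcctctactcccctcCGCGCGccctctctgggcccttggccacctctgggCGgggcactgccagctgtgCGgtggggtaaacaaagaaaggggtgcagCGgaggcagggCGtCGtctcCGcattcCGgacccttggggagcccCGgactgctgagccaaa
The third set is distal. The stretches near Wnt7b (chr15:85634620-85634919) and Kcnn1 (chr8:70865525-70865824) each hold 26 CpG although they lie in no annotated promoter window.
near Wnt7b: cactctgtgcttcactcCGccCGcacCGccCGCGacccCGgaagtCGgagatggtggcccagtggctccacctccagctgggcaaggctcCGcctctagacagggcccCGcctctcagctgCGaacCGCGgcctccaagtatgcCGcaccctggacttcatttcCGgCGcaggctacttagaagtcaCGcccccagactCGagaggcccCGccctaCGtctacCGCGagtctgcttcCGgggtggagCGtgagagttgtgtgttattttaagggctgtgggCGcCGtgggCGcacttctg
near Kcnn1: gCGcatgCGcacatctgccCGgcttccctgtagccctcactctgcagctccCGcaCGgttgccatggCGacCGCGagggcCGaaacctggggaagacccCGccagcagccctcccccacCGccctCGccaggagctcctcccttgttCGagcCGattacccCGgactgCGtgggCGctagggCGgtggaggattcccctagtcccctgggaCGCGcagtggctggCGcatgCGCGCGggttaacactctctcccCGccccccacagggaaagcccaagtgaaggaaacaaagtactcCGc
The last shows the distal site with the highest signal of all, which also had very high input. The stretch near Rab10 (chr12:3110037-3110336) holds 44.3% of bases masked as repeats.
near Rab10: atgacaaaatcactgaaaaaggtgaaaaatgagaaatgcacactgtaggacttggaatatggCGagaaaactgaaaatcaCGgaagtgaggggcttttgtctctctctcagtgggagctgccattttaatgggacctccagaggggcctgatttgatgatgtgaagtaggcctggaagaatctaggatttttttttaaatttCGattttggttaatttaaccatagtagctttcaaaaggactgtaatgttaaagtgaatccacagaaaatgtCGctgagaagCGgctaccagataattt

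Most IP signal in peaks lay at promoters, although gene bodies held the most peaks. The unit is normalized tags, IP tags per 10000000 IP tags, given per kb of peak for density, and the genome-wide mean of the IP libraries was 3.78 normalized tags per kb. The peaks covered 19.05 Mb, or 0.795% of autosomal bases, and held 3.02% of IP tags. Their median length was 644 bp, and 39.1% had a length of exactly 500 bp. The median density was 10.98 normalized tags per kb (quartiles 8.43 and 17.2), or 2.91 times the IP mean. The densest 1% (236 peaks) held 7.54% of the signal in peaks.

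A promoter was taken as 1000 bp upstream to 100 bp downstream of any annotated transcript start. Promoter peaks numbered 8349, or 35.4% of peaks (95% Wilson interval 34.8 to 36.1%), and held 56.8% of the signal on windows that make up 3.73% of autosomal bases. Gene bodies outside promoters held 9491 peaks (40.3%, 39.7 to 40.9%) and 27.8% of the signal on 46.0% of bases. Distal sites, outside every annotated gene and promoter window, held 5719 peaks (24.3%, 23.7 to 24.8%) and 15.5% of the signal on 50.3% of bases. The share of the signal in peaks was thus 15.2 times the share of bases at promoters, 0.604 times in gene bodies and 0.307 times at distal sites. Within gene bodies, 2117 peaks centred on exons had a median density of 11.2 normalized tags per kb, and 7374 in introns had 9.10.

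Promoter peaks were also the densest class, with a median of 18.1 normalized tags per kb (95% order-statistic interval 17.8 to 18.3) against 9.48 (9.34 to 9.51) in gene bodies and 8.88 (8.88 to 9.04) at distal sites. These intervals cover peaks of 1 list and not the spread between cultures, for which the list has no value. Their fold over input differed little from that of the other classes. The median authors' fold was 5.20 at promoters, 5.13 in gene bodies and 5.31 at distal sites, and input density was 0.897, 0.490 and 0.467 times the input mean in that order. The higher signal of promoter peaks thus stood beside a higher input, and its part in the result was not tested.

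The input column sets how firmly a fold can be read. Per the authors' deposited table, the lowest fold over input was 4.00 and the median 5.20, and the largest p-value was 8.32e-05. The median peak held 4 input tags, 29.8% of peaks held under 3, 55.1% under 5, and 21.9% (5158 peaks) at least 10. The share of peaks with under 3 input tags was 8.50% at promoters, 39.5% in gene bodies and 45.0% at distal sites. Of the 1383 peaks with a fold of at least 10, 88.8% had under 3 input tags. Those folds are therefore the least certain of the list. With at least 10 input tags required, the promoter share of peaks was 75.3%, and the median densities were 23.86, 20.27 and 19.12 normalized tags per kb at promoters, gene bodies and distal sites. Promoter peaks had a median of 9 input tags and each other class 3, so this limit keeps more promoter peaks.

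The exact conditional interval of the IP to input ratio gives another reading. Its lower 95% bound, which covers counting error only, reached 4 in 1014 peaks (4.30%). These were 10.4% of promoter peaks, 1.01% of gene body peaks and 0.839% of distal peaks. Of these peaks, 870 were promoter peaks, the class whose tag counts were also higher.

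**Figure D1:**
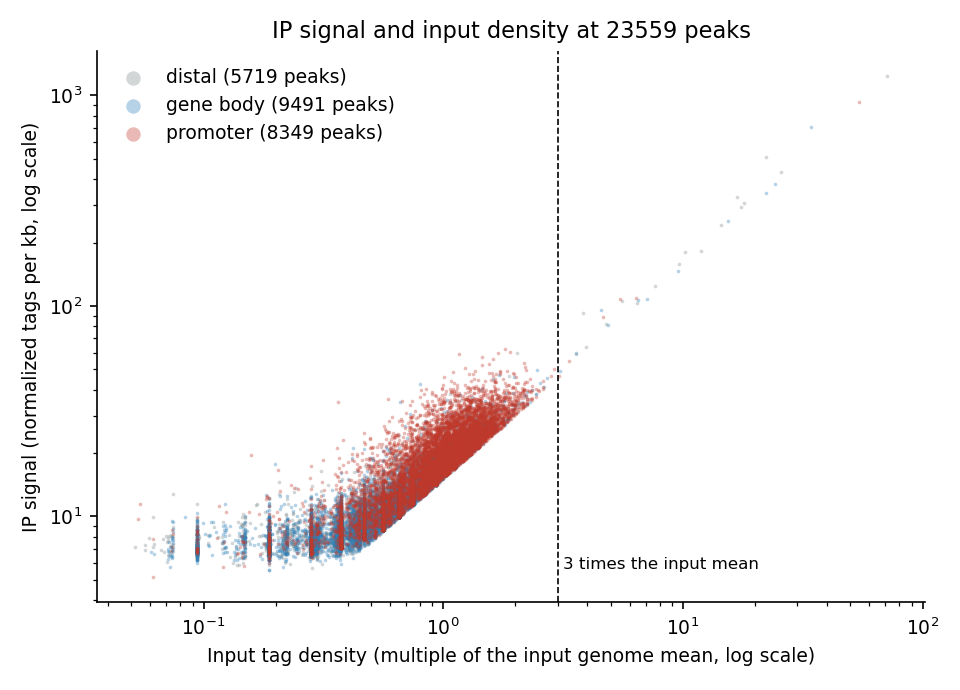
IP signal (normalized tags per kb, log scale) against input tag density (multiple of the input genome mean, log scale) for the 23559 peaks, coloured by class. The sharp lower edge follows from the lowest listed fold of 4.00, and the 34 peaks right of the dashed line at 3 times the input mean include the 25 densest of all.

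Across protein-coding genes, 7860 of 20807 on chromosomes 1 to 19 (37.8%) had a peak in a promoter window, and 4262 (20.5%) had one with at least 10 input tags. A peak centred in the gene itself was found in 8831 (42.4%), and 11263 had either kind. Promoter windows and genes overlap, so a peak just inside a start can count in both. The densest promoter peak of a gene had a median of 19.7 normalized tags per kb, with quartiles of 14.6 and 25.2. Protein-coding promoters accounted for 7533 of the 8349 promoter peaks, and 832 of these lay in windows of at least 2 such genes.

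Signal in peaks was centred on transcription starts. Within 1 kb of a protein-coding start lay 39.9% of peaks and 62.5% of signal, and within 250 bp 29.9% and 48.4%. Peaks divided nearly evenly between the sides, with 4796 within 1 kb upstream and 4612 downstream, and their median position within 1 kb was -2 bp. The median density was 19.3 normalized tags per kb in the 250 bp before the start and 18.3 in the 250 bp after it, and had fallen to 10.3 by 1000 to 1250 bp into the gene. Input tags had medians of 10, 9.5 and 3.5 in those bins. Peaks over 50 kb from any protein-coding start were 10.2% of the list.

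**Figure D2:**
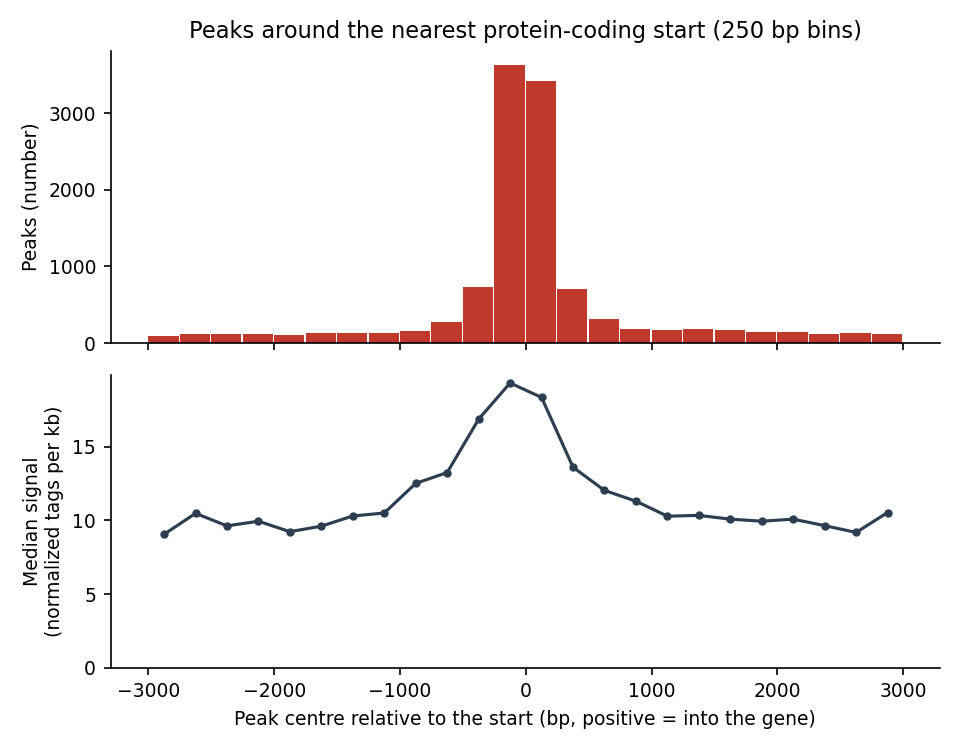
Number of peaks (top) and their median signal in normalized tags per kb (bottom) in 250 bp bins of the distance from the peak centre to the nearest protein-coding start, positive into the gene. Peak number and density both have their maximum in the bins beside the start, with 3632 peaks just before it and 3415 just after.

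Genes whose start was rich in CpG had a promoter peak more often. CpG was counted at the start of the annotated gene, whereas a promoter peak may lie at the start of any of its transcripts. Of the 5432 protein-coding genes with under 1 CpG per 100 bp, 6.68% (95% Wilson interval 6.05 to 7.38%) had a peak, against 23.9% from 1 to 2, 50.0% from 2 to 4, 63.1% from 4 to 6 and 68.6% (66.5 to 70.6%) at 6 or more. In the first class, 289 of the 363 genes with a peak had it at another start alone, against 217 of 1397 in the last. With a peak counted only at the start whose CpG was counted, an alternative added after the data were seen, the shares were 1.36% (1.09 to 1.71%), 8.45%, 31.7%, 49.1% and 57.9% (55.8 to 60.1%). The median was then 4.36 CpG per 100 bp at starts with a peak and 1.63 at those without. Counting any start, the median density of the peaks was 15.5 normalized tags per kb in the first class and 21.6 in the last. Input tags in these peaks had medians of 6 and 12. With a peak counted only at the start whose CpG was counted, the median densities were 11.1 and 22.0.

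Shared promoters were another common place. Genes with a divergent protein-coding neighbour starting within 1 kb upstream, called head to head here (both genes of a pair count), had a promoter peak in 1124 of 1448 cases (77.6%, 75.4 to 79.7%), and the other genes in 6736 of 19359 (34.8%, 34.1 to 35.5%). Head-to-head promoters are rich in CpG, with a median of 5.45 per 100 bp against 2.18. Among promoters with at least 4 CpG per 100 bp the shares were 81.3% and 60.9%. Both members of a pair often count the same peak, so the genes of this class are not independent. By definition the neighbour's start lies within the promoter window of 1000 bp upstream, so a peak at either start can count. How much of the higher share this makes was not tested.

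Most classes of non-coding gene had promoter peaks less often than protein-coding genes, with 1 exception among those named here. Long RNAs that start from the promoter of another gene, the class bidirectional promoter lncRNA, had one in 98 of 190 cases (51.6%, 44.5 to 58.6%), above the 37.8% of protein-coding genes. Here too a peak at the start of the other gene can count. The share was 13.01% of 2913 antisense genes, 8.06% of 5209 lincRNA genes, 5.99% of 2054 miRNA genes and 3.12% of 1442 snoRNA genes. Processed pseudogenes, which are mostly silent copies of spliced RNAs, had one in 1.10% of 8924 cases.

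The 12 protein-coding genes with the densest promoter peaks shared 9 peaks. A promoter peak of Ank1 (ankyrin of the red cell membrane skeleton) was densest, at 108.4 normalized tags per kb (95% Poisson interval 100.4 to 116.9, chr8:23095065-23096005). It had 55 input tags, or 5.47 times the input mean, and a ratio of 5.25 (3.98 to 7.04). That peak lay inside the gene, past the annotated gene start at chr8:22974844, and counts as promoter through another transcript start. It held 2.02 CpG per 100 bp, against 9.36 at the gene start, and 35.1% of its bases were masked as repeats. The peak shared by Hjurp, the chaperone that loads the centromeric histone CENP-A, and the cold-sensing channel Trpm8 followed at 88.7 (81.7 to 96.2, chr1:88277103-88278105). Its input was 4.66 times the mean. These 2 peaks, with 3 of the 12 genes, were the ones among the 9 whose input exceeded 3 times its mean.

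The next promoters had ordinary input and lay close together. Wrb, a receptor subunit for tail-anchored proteins at the endoplasmic reticulum, had 62.1 normalized tags per kb (56.9 to 67.6, chr16:96144809-96146094) with 25 input tags and a ratio of 9.04 (6.06 to 14.1). Tmem259, a membrane protein of the endoplasmic reticulum, had 59.7 (54.3 to 65.5, chr10:79984472-79985606) with 20.5 input tags. Cactin, a splicing-associated protein, had 58.8 (54.6 to 63.1, chr10:81319849-81321770) with 24 input tags. Their Poisson intervals overlapped, so the order among these 3 is not resolved by the counts. Cactin had the highest ratio of the 9 peaks, at 13.3 (8.89 to 20.9).

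Ppp2r3d, a regulatory subunit of protein phosphatase 2A, had 57.0 normalized tags per kb over a peak of 3598 bp, with 56 input tags and a ratio of 10.4 (7.94 to 13.8). That peak lay 52.4 kb from the annotated gene start and counts as promoter through another transcript start inside the gene. P4hb, protein disulfide isomerase, had 55.7 with 24.5 input tags. The shared start of Sptbn4, a spectrin of nerve axons, and Blvrb, a biliverdin reductase, had 53.6 with 26.5 input tags. The shared start of Xrcc3, a homologous recombination protein, and Zfyve21, an endosomal protein, had 52.9 with 19 input tags. After the 3 genes with high input were left out, the next in order were the corepressor Tle4 (52.2) and the pair Mob3a and Izumo4 (51.4). The step from place 12 to place 13 of the full ranking, 52.9 to 52.2, is smaller than the counting interval of either, and place 100 stood at 40.8.

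**Figure D3:**
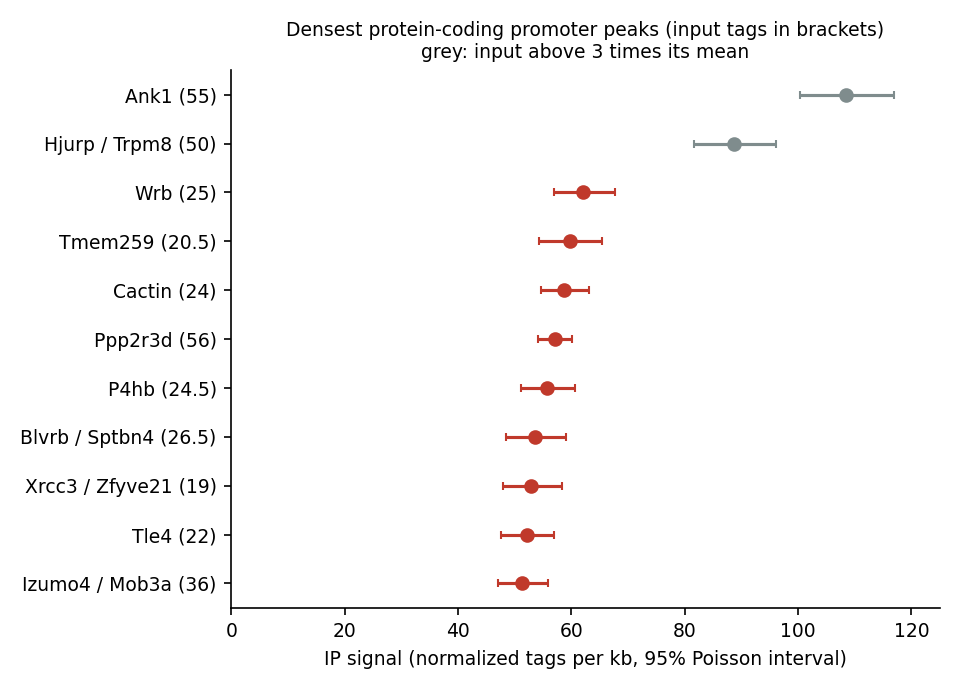
IP signal in normalized tags per kb, with 95% Poisson intervals, for the densest protein-coding promoter peaks, with input tags in brackets. The grey points, Ank1 and Hjurp / Trpm8, had input above 3 times its mean, and the intervals of the remaining peaks, from 62.1 for Wrb down to 51.4 for Mob3a and Izumo4, overlap their neighbours.

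Ranking by whole tag count favoured long promoter peaks and kept 2 of the 12 genes, Ppp2r3d and Cactin. Ppp2r3d led with 205.2 normalized tags. Brd2, a bromodomain reader of acetylated histones, had 160.4 normalized tags over 4860 bp with 73.5 input tags. Ptma, prothymosin alpha, had 158.1 over 4307 bp with 82.5 input tags. Csf2ra, a cytokine receptor subunit, had 125.9 over 4541 bp, and Gsk3b, the kinase that a component of 2i medium inhibits, had 107.2 over 2194 bp. Peaks over 3 kb numbered 75, of which 48 were promoter peaks. The longest, 9615 bp with 275.6 normalized tags and 97 input tags, lay at the start of the annotated gene Gm8493 (chr5:109549844-109559459), and was named for its length after its values were seen.

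Ratios were also ranked by the lower bound of the interval, which still admits peaks with few input tags. Fxr2, an RNA-binding relative of FMR1, led with 25.6 (9.88 to 94.9) on 4 input tags, and Cactin was next. Clec11a, a secreted growth factor, had 14.1 (8.79 to 24.2) at a site in its gene 1.59 kb past the start, with 42.8 normalized tags per kb. Rps6ka5, a kinase of histone H3, had 16.2 (8.42 to 35.7), Dnpep, an aminopeptidase, 12.6 (8.00 to 21.1), and Kat6b, a histone acetyltransferase, 10.8 (7.30 to 16.8). Of these 12 peaks, 9 were promoter peaks.

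Totals per gene were led by very long genes and by single extreme peaks. The median total over genes with a peak was 16.2 normalized tags, 67.9% of them had 1 peak, and 41 genes had 10 or more. Across these genes the number of peaks rose with gene length (Spearman 0.36), and the total did not (Spearman -0.01). These are descriptions across 8831 genes that share libraries and intervals. A peak was found in 23.6% of genes under 10 kb and in 66.1% of those over 200 kb. Among genes with a peak, the median total was 16.7 normalized tags in the first class and 15.2 in the second.

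Gm20388 had the highest total, 1868.5 normalized tags in 150 peaks. It is an annotated transcript unit of 4435 kb on chromosome 8 (chr8:119910841-124345722) that spans 71 other protein-coding genes, and its 3 densest peaks are at promoters of any annotated gene, all 2371 kb or more from its own start. Fgfr2, a fibroblast growth factor receptor, came next with 583.2 normalized tags in 44 peaks, over an annotated interval of 2961 kb that spans 29 other genes. Its 3 densest peaks lay 547 kb or more from its start, at promoters. These totals are therefore sums over neighbourhoods. With each peak given to the gene with the nearest start, 3 of the first 10 genes kept a place in the first 10.

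Some totals rested on a peak of high input. Flt1, a VEGF receptor, had 458.0 normalized tags, 96.6% of them in an intronic peak at 34.2 times the input mean, and 15.5 without it. Cmss1 and Filip1l overlap and shared an intronic peak of 284.7 normalized tags at 24.3 times the input mean. Their total of 296.4 fell to 11.7 without it. Gphn, the scaffold of inhibitory synapses, had 187.9, and 28.4 without its peak at 15.5 times the input mean.

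The remaining leaders held many or broad peaks with ordinary input. Gse1, a partner of the LSD1 corepressor complex, had 388.5 normalized tags in 23 peaks, none of them above 16.0% of the total. The 3 densest, at 23.1 to 24.4 normalized tags per kb, lay 188 to 290 kb inside the gene. Ppp2r3d had 291.3 in 3 peaks, with 78 input tags and a ratio of 10.6 (8.43 to 13.4) for the gene. The promoter peak described above, 52.4 kb from the gene start, held 70.4% of that total. Cic, the repressor that ERK signalling releases, had 200.3 in 4 peaks at 19.5 to 31.6 normalized tags per kb. Mnt, an antagonist of MYC, had 195.0 in 2 peaks, the larger of 2966 bp spanning its start with 46.9 normalized tags per kb. Without the peaks of high input the first 10 also took in the corepressor scaffold Sin3a (177.6), the transcription factor Nfic (175.0), H2-DMa (171.6) and the chromatin reader Ing1 (168.2, all in a peak of 4191 bp).

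**Figure D4:**
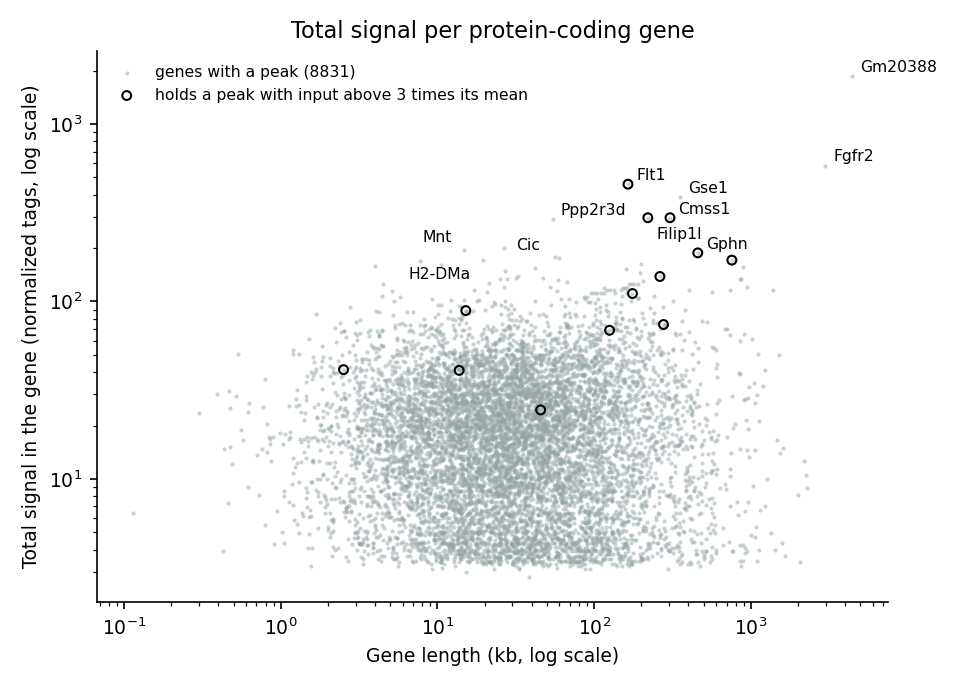
Total signal per protein-coding gene (normalized tags, log scale) against gene length (kb, log scale) for the 8831 genes with a peak. Open circles hold a peak with input above 3 times its mean, and the labelled genes are the 10 highest totals and H2-DMa, with Gm20388 (1868.5) and Fgfr2 (583.2) at the long end.

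Per kb of gene, among genes with at least 3 peaks, the leaders were short and none of the 10 highest totals other than Cic stayed in place. H2-DMa, a chaperone of antigen loading, had 8.77 normalized tags per kb of gene, 93.5% of it in the long peak that it shares with the Brd2 start, which lies inside its annotated interval. The ribosomal protein gene Rpl18 had 8.51, from 3 promoter-class peaks within 5.38 kb. Dact3, a Wnt antagonist, had 8.37 in 4 peaks and Crb3, an apical polarity protein, 8.34 in 3. Cic followed with 7.57, then Prrg2 (7.20), Acbd4 (7.06), Zbtb7b (6.81), Nkiras2 (6.60) and Gm45713 (6.54). Shorter genes with fewer peaks can exceed these values, as Mnt did with 13.2 from 2 peaks.

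The densest gene body peaks repeated the pattern of high input. The first 10 all had input above 3 times its mean, led by Flt1 at 708.0 normalized tags per kb (682.6 to 734.1) with 229 input tags, the site shared by Cmss1 and Filip1l at 379.1, Mdga2 at 342.0 and Gphn at 254.4. Their ratios ran from 4.04 to 5.57, and 8 of the 10 lay below the median fold of the list, with Flt1 (5.47) and Lama1 (5.57) above it. With ordinary input required, the leader was a site in a Col23a1 intron, at 49.8 normalized tags per kb (43.3 to 57.1) with 16.5 input tags. Its input was still 2.46 times the mean, and 47.6% of its bases were masked as repeats. Mnt (46.9), Angptl6 (45.7), Lmnb2 (45.6), the Ltbp4 intron (45.2), Tmc8 (43.0) and Clec11a (42.8) came next. Of the leading 10 sites under this rule, 5 were centred on exons. These 5 lay close past a protein-coding start, at 0.104 kb (Fbxl15), 0.308 kb (Lmnb2), 0.411 kb (Mnt), 0.801 kb (Ing1) and 1.40 kb (Angptl6). Tmc8 and Clec11a lay 1.26 and 1.59 kb past one. The promoter window ends 100 bp past a start, so the class of such sites depends on that limit.

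At distal sites the 10 densest peaks all had input far above its mean, from 9.63 to 71.4 times. The first, 200 kb from the Rab10 start (chr12:3109560-3110814), had 1239 normalized tags per kb (1215 to 1263) with 958 input tags, and its ratio of 4.59 (4.30 to 4.91) was below the median fold of the list. The site near Vmn2r87 had 511.0 with 149 input tags and a ratio of 6.11 (5.17 to 7.26). Sites near Kcnh5, Wls, Tmem196, Plk2, Fgf14, Vmn1r2, Hic2 and Adgrl2 had 432.5 down to 158.8. Between 41.0% and 100% of the bases of these 10 peaks were masked as repeats. The gene names here give the nearest protein-coding start, 11.2 to 373 kb away, and no link to that gene.

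With input at or below 3 times its mean, a limit chosen after the data were seen, none of those 10 remained. The leading distal site was then 52.3 kb from Wnt7b (chr15:85634204-85635336), with 59.8 normalized tags per kb (54.4 to 65.6), 24.5 input tags and a ratio of 7.83 (5.21 to 12.3). Its interval overlaps that of the Tmem259 promoter at 59.7. Next were sites near Kcnn1 (46.5), Ccne1 (39.8), 1810010H24Rik (38.2), Gm21738 (38.2), Glis2 (36.1), Zfp395 (35.7), Tufm (35.4), Slc38a2 (35.1) and Rpn1 (34.1). Of these 10, 9 held 3.18 or more CpG per 100 bp, against a median of 1.42 for distal peaks. The exception, near Gm21738, was 96.1% masked repeat with 0.636 CpG per 100 bp.

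In all, 34 peaks had input above 3 times its mean, of which 6 were promoter, 11 gene body and 17 distal peaks. They held 2.17% of the signal in peaks and 8.74% of that at distal sites, and had ratios from 4.03 to 6.35. The second densest peak of the list had 927.8 normalized tags per kb with 364.5 input tags, or 54.5 times the input mean. It lay on chromosome 17 within CT010467.1, a gene annotated as rRNA, and counts as promoter through the window of Gm42418. The list cannot tell apart a site of many breaks from reads of many repeat copies placed at 1 site.

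Base composition followed the classes. Median GC was 59.2% in promoter peaks, 51.6% in gene body peaks and 49.8% in distal peaks, against 41.8% in 500 bp tiles. CpG per 100 bp had medians of 6.14, 1.80 and 1.42, against 0.600. The motif CGCGCG, searched on both strands and its own complement, was in 29.6% of promoter peaks, 6.88% of gene body peaks, 2.903% of distal peaks and 0.684% of tiles. GGGGGG or its complement was in 32.6%, 23.5% and 22.3% of the classes and 12.4% of tiles. The dinucleotide run CACACACACACA or its complement was in 1.98%, 6.90% and 9.48%, against 7.25% of tiles. GAGAGAGAGAGA or its complement was in 0.982%, 2.25% and 2.99%, against 3.22% of tiles, and AAAAAAAAAAAA or its complement in 4.72%, 5.42% and 7.33%, against 5.85%. Of these words, CGCGCG and GGGGGG were commoner in every class than in tiles, GA runs were rarer in every class, and runs of CA or A were commoner than in tiles at distal sites alone. The words are descriptions of these windows. Median peak lengths were 902 bp at promoters, 625 bp in gene bodies and 500 bp at distal sites, against tiles of 500 bp. A longer window can hold a word more often, and the shares were not corrected for length.

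Chromosomes differed in the same direction. Chromosome 11 had the most peaks per Mb, 16.6, and chromosome 14 the fewest, 6.41. Across the 19 chromosomes, peaks per Mb correlated with protein-coding genes per Mb (Pearson 0.858, Spearman 0.863) and with GC content (Pearson 0.922, Spearman 0.895). These are descriptions over points that share the libraries and differ in base composition. The share of protein-coding genes with a promoter peak ran from 31.4% on chromosome 14 to 44.5% on chromosome 5.

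Genes of the study's own question were looked up after the values were seen. Among genes that act on the same lesions, the promoter of Xrcc1, the repair scaffold, had 39.3 normalized tags per kb with 25 input tags and a ratio of 4.51 (2.99 to 7.10). That Xrcc1 peak lay at another annotated start than the gene start, unlike those of Parp1, Parp2 and Apex1. The Parp2 promoter had 29.3 with 13 input tags, and that of Parp1 22.1 with 26. The endonuclease gene Apex1 had 19.2 with 10 input tags. Polb, the repair polymerase, had no listed peak, and Lig3 had 1 peak of 3.91 normalized tags in the gene on 2.5 input tags. No peak in the list is no measure of the breaks there, since the list holds sites above a minimum.

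The methylcytosine enzymes that make the substrates of TDG had modest promoter peaks. Tet1 had 12.3 normalized tags per kb on 3.5 input tags, Tet2 17.95 on 8 and Tet3 13.2 on 4.5. The Tet1 gene held 6 peaks with a total of 49.9 normalized tags. Of the methyltransferases, the maintenance enzyme Dnmt1 had a promoter peak of 36.8 normalized tags per kb on 21.5 input tags with a ratio of 5.52 (3.56 to 9.01). The promoter of Dnmt3a had 8.58 on 3 input tags and a ratio of 4.05 (1.25 to 20.8), and Dnmt3b had none. The promoter peaks of Tet1, Tet3, Dnmt1 and Dnmt3a lay at another annotated start than the gene start, and that of Tet2 at the gene start. Trim28, a corepressor of retroelements, had the highest total of this list, 135.4 normalized tags in 6 peaks, followed by Mbd3 (86.7) and the hemimethylation reader Uhrf1 (56.0). The annotated Trim28 interval of 31.9 kb spans 1 other protein-coding gene, so its total may include peaks of that gene.

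Pluripotency genes were uneven. Esrrb, a naive factor, had 14 peaks with a total of 153.2 normalized tags and 74 input tags, the highest of its list. Its largest peak held 18.2% of the total. Klf2 had 63.4 normalized tags in 1 peak at a ratio of 8.55 (5.52 to 14.0). Among core factors Sall4 had a total of 66.3 and Sox2 37.8, with 22.9 normalized tags per kb on 18.5 input tags at the Sox2 promoter. The Pou5f1 promoter had 6.66 on 1.5 input tags, too few for a ratio that can be read (10.2, 2.23 to 147). That Pou5f1 peak lay at another annotated start than the gene start, unlike the Sox2 peak. Nanog and Zfp42 had no listed peak.

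Over gene lists, the share with a promoter peak ran from 0 to 76.2%, beside 37.8% of all protein-coding genes. No test was made of these lists, and they differ in promoter CpG. At the top were the p53 response with 16 of 21 genes (76.2%, 95% Wilson interval 54.9 to 89.4%), cytosolic ribosomal proteins with 55 of 73 (75.3%, 64.4 to 83.8%), the FGF-ERK pathway with 22 of 31 (70.97%) and DNA methylation and demethylation with 17 of 24 (70.8%). Naive pluripotency followed with 17 of 25 (68.0%), base excision and strand break repair with 18 of 27 (66.7%), glycolysis with 14 of 22 (63.6%), core pluripotency with 8 of 13 (61.5%) and homologous recombination and Fanconi genes with 20 of 33 (60.6%). The interval of the small core pluripotency list, 35.5 to 82.3%, holds the value of all genes. With at least 10 input tags required, base excision and strand break repair had 17 of 27 (63.0%) and ribosomal proteins 41 of 73 (56.2%), beside 20.5% of all protein-coding genes. The p53 response then had 10 of 21 (47.6%), the FGF-ERK pathway 12 of 31 (38.7%) and DNA methylation and demethylation 9 of 24 (37.5%).

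Lists near the background were PARP and ADP-ribose turnover with 13 of 24 (54.2%, 35.1 to 72.1%), the Wnt pathway with 17 of 35 (48.6%), imprinted genes with 16 of 34 (47.1%), replication-dependent histones with 29 of 67 (43.3%), very long late-replicating genes with 13 of 31 (41.9%), germline genes with 9 of 22 (40.9%) and polycomb-controlled regulators with 19 of 50. Their intervals hold the 37.8% of all genes. The place of some of these lists depends on the settings. With at least 10 input tags, germline genes had 1 of 22 (4.55%), polycomb-controlled regulators 6 of 50 and very long genes 6 of 31 (19.4%), beside the 20.5% of all genes. PARP and ADP-ribose turnover then had 10 of 24 (41.7%), above the share of all genes. At the same setting the Wnt pathway had 9 of 35 (25.7%), histones 17 of 67 (25.4%) and imprinted genes 7 of 34 (20.6%). Histone genes are short, and they had 46 of 67 (68.7%) with promoter windows of 1 kb on both sides and 52 of 67 (77.6%) with any overlap, beside 45.7% and 44.8% of all genes. Primed epiblast genes had 5 of 17, extraembryonic endoderm genes 5 of 18 and trophectoderm genes 3 of 11, also with intervals that hold it. Primed epiblast genes had 10 of 17 with the wider window and 9 of 17 with any overlap.

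At the bottom, Hox genes had 5 of 39 (12.82%, 5.603 to 26.71%), and none with at least 10 input tags. Fibroblast genes had 2 of 16 (12.5%, 3.50 to 36.0%), chemosensory receptors 1 of 1472 (0.0679%), clustered protocadherins 0 of 57 (up to 6.31%) and 2-cell-like genes 0 of 15 (up to 20.4%). Chemosensory and 2-cell-like genes mostly belong to multicopy families, with 0.363 CpG per 100 bp at the median promoter. Hox promoters had 3.36, above the 2.36 of all genes. Of the 57 protocadherins, 25 (43.9%) had a peak within the gene, beside 42.4% of all genes. Their median length was 90.3 kb, against 17.6 kb for all protein-coding genes. The leading members, Pcdhga1, Pcdhga2 and Pcdhga3, counted the same 12 peaks, since their annotated intervals overlap. The Pcdhga1 interval spans 20 other protein-coding genes, so the 25 members can count the same peaks and are not independent.

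Examples give the scale of these lists. Of the ribosomal proteins, Rpl41 had a total of 50.9 normalized tags on 26 input tags. In the p53 list the apoptosis gene Bbc3 had 68.9 and the cell cycle inhibitor Cdkn1a 62.9 in 3 peaks. In the FGF-ERK list, after Fgfr2, the ERK target Etv5 had 131.5 in 6 peaks and Il17rd 72.1. The repair genes Pold1, Lig1 and Ung had 43.9, 43.9 and 42.4, on 24, 17.5 and 22.5 input tags. Fancc led homologous recombination and Fanconi genes with 74.6, Hk2 led glycolysis with 83.1 and Macrod1 led ADP-ribose turnover with 54.9. The Macrod1 interval spans 1 other protein-coding gene.

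Among the remaining lists, the imprinted gene Peg3 had 1 peak of 4278 bp with 120.7 normalized tags, 43 input tags and a ratio of 7.95 (5.85 to 11.1), 1.23 kb past a start. H13, whose interval spans 1 other protein-coding gene, and Kcnq1 followed with 85.7 and 53.8. Axin2 led the Wnt list with 50.1, Hist1h3a the histones with 50.9 and Lmx1b the polycomb list with 44.7. Auts2, the highest of the very long genes, had 8 peaks and 50.5 over 1106 kb, or 0.0457 normalized tags per kb of gene. Lama1 led extraembryonic endoderm with 68.8, which is 8.81 without an intronic peak of high input.

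**Figure D5:**
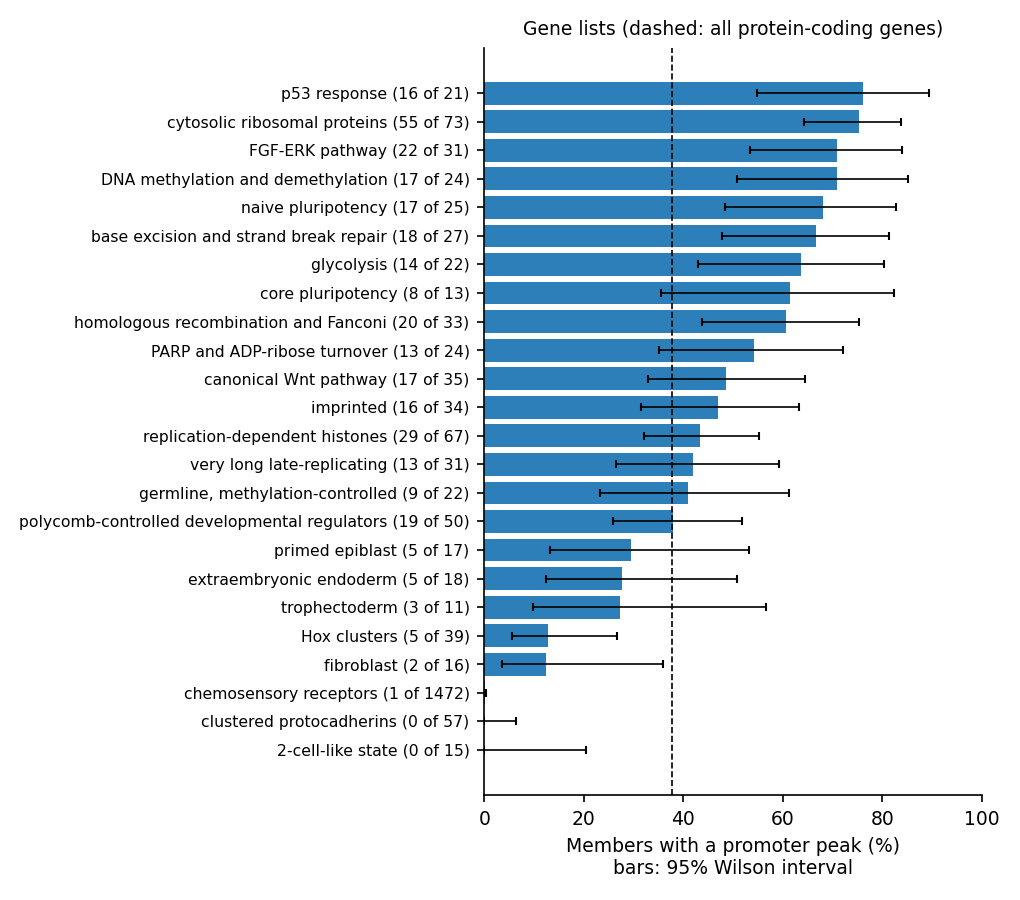
Share of the members of each gene list with a promoter peak (%), with 95% Wilson intervals and counts in brackets. The dashed line is the 37.8% of all protein-coding genes, with ribosomal proteins (75.3%) above it and chemosensory receptors (0.0679%) below.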

How the data were processed

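SSB-seq peaks of Tdg knockout cells under talazoparib were analysed (3 IP libraries, 1 input library). Tools per the submitters' processing notes were HOMER 4.11, Picard 2.9.2, Bowtie2 2.3.4.2 and R 3.6 on mm10, and roles and settings are not given in the sources used here. Per the file headers, which have the column names of HOMER's peak finder, the authors deposited 1 value per peak for the pooled IP libraries. The deposited normalized tag count is a signal per 10000000 IP tags, and the deposited input tags are a signal in steps of 0.5 tags. A deposited column of another unit holds IP tags scaled to the input total. The deposited ratio, the authors' fold of those tags over input tags, matched a recomputed one within 1% for 100% of peaks. The deposited p-value and the authors' scores entered no result beyond the values named. A fold per peak is the authors' and describes peaks within this list.

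The input total, 28.3 M tags, came from the factor between columns, and the IP total, 66.4 M, was estimated from the step of 0.0753 between low normalized counts under 6, on which 100% fell within 0.0051. This assumes IP tags in steps of 0.5 as in the input. Mean densities were 25.1 IP and 10.7 input tags per kb over 2648 Mb. Coordinates are as deposited, with no statement whether counting begins at 0 or 1. The GENCODE M21 annotation of GRCm38.p6, which is mm10, placed peak centres, with 51229 genes on chromosomes 1 to 19. Intervals are exact Poisson, exact conditional binomial, Wilson or order-statistic, all at 95%, and cover counting error only. Python 3.11.15, numpy 2.4.6, pandas 2.3.3, scipy 1.17.1 and matplotlib 3.10.9 were used, and the steps were tested on simulated data. Named were the 12 genes with the densest promoter peaks and the 5 densest with at least 10 input tags, the 10 highest gene totals, the 10 highest per kb of gene with at least 3 peaks, the 10 densest distal peaks and the 3 highest members of each list. Some searched words and sequences are not reported here. Other names were chosen after their values were seen. Members and lists were chosen with earlier results of these data known. No test compares conditions, and the planned check of replicate agreement could not be run without values per library.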

Additional observations from a re-analysis of the deposited data

Results flagged for a closer look

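Peaks outside chromosomes 1 to 19 entered no result above, and their tags exceeded the input in each group of sequences. The IP share of tags was 6.401 times the input share in the 385 listed peaks on X and 5.38 times in the 2 on Y. It was 4.57 times in the 35 peaks on unplaced contigs and 5.595 times in the 2 mitochondrial peaks. The contigs held 2.71% of all IP tags and the mitochondrial peaks 0.380%, set beside 3.02% for all peaks on chromosomes 1 to 19, and X held 0.0388%. Since 4.00 was the lowest fold listed, ratios above that value follow from the list.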

How the results depend on the processing

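No paired analysis was possible because the list gives 1 value per peak for the pooled libraries, and leaving out each IP library was not run for the same reason. Precision is set by input tags, and spread between cultures is unknown. Orders below are promoter, gene body, distal. With at least 5 input tags, shares of peaks were 60.8%, 26.5% and 12.7%, shares of signal 68.5%, 21.1% and 10.4%, and medians 20.5, 15.3 and 13.7 normalized tags per kb. With at least 10, shares of peaks were 75.3%, 18.3% and 6.44%, shares of signal 75.8%, 16.8% and 7.44%, and medians 23.9, 20.3 and 19.12. Genes with a promoter peak were then 4262, with any peak 5259, and list members with a promoter peak 188 in place of 315. With a fold of at least 6 (7204 peaks), shares of peaks were 34.0%, 39.0% and 27.0%, shares of signal 65.3%, 21.5% and 13.2%, and medians 20.2, 8.12 and 8.02. The counts were then 2492 genes with a promoter peak, 4363 with any peak and 84 list members. With promoter windows of 1 kb on both sides, promoters and gene bodies held 44.1% and 31.9% of peaks and 66.3% and 18.3% of signal, with medians of 17.0 and 8.99. With starts of protein-coding genes alone, shares of peaks were 32.0%, 42.5% and 25.5%, shares of signal 52.9%, 30.3% and 16.8%, and the promoter and gene body medians 18.6 and 9.52. With any overlap of 1 bp in place of the centre, shares of peaks were 42.5%, 34.1% and 23.3%, shares of signal 65.99%, 19.4% and 14.6%, and the promoter and gene body medians 17.3 and 9.04. Merging peaks within 1 kb gave gene bodies 28.4% of signal. With input at or below 3 times its mean, chosen after seeing the data, promoters held 57.7% and distal sites 14.4% of signal. Of the leading genes or sites, that limit kept 0 of 10 distal sites and 6 of 10 gene totals. Whole tag count kept 2 of 12 promoters, nearest starts kept 3 of 10 gene totals, and division by gene length, with no minimum of peaks, kept 0 of 10. Of these values, 63 moved and 52 stayed within their interval or 1.5 times their count. Counts of promoter peak members in the 24 separate gene lists moved by over 1.5 times in 51 cases and not in 117, with 22 of the moves at a fold of at least 6 and 14 at 10 input tags. Counting a peak only at the start whose CpG was counted, added after seeing the data, took the share of genes with a promoter peak from 6.68% to 1.36% in the lowest CpG class and from 68.6% to 57.9% in the highest. In every alternative that gives class values, promoters held the largest share of signal and the highest median density. The limits on input tags keep promoter peaks more often, since these had a median of 9 input tags against 3 in each other class. Those limits therefore cannot decide the promoter share, and the ranking alternatives do not address it. The alternatives keep fewer peaks, redraw the classes, or change the score or the gene a peak is given to.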
